A study of Mus musculus with 5 samples.

Results

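Heat shock chaperones are proteins that fold other proteins, hold unfolded ones in solution and take clumped ones apart, and many of their genes are switched on by the transcription factor HSF1 when proteins are damaged. The HSP70 family binds stretches of unfolded chain in a cycle driven by ATP, J-domain proteins deliver the chains and start the cycle, and HSP110 proteins release ADP so that it can begin again. HSP90 acts later, on proteins near their final shape, the HSP60 and HSP10 chaperonin folds proteins inside mitochondria, and small heat shock proteins hold unfolded chains without ATP. Cartilage cells export large amounts of collagen and proteoglycan, and chaperones of the cytosol and of mitochondria serve the proteins that stay inside.

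The set followed here held the 10 genes Hsph1, Hspa4l, Hspa8, Hspa1b, Dnaja1, Dnajb1, Hsp90aa1, Hspd1, Hspe1 and Hspb1, out of 18193 genes with a probe set of their own on the array. They were chosen by name, with earlier results of these data known. Each probe set annotated to one of these symbols alone was read, 29 in all. Of the 29, 27 had a mean intensity above 105.93, the median over all probe sets, and the 2 below it both belonged to Hsp90aa1. All 10 genes passed that limit through the probe set of highest mean intensity, called the brightest below, and no brightest probe set lay under the floor of 73.1 on any day. A gene is given by its brightest probe set unless another is named.

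The cells were primary chondrocytes, the cells that make cartilage, from rib cages of FVB mouse embryos of gestational day 18.5. They were released by 0.25% collagenase and trypsin at 37 °C and plated on gelatin in medium with 10% serum, ascorbic acid and 10 mM beta-glycerophosphate. All cultures had this strain, embryonic age and medium, the labels name no heat treatment, and the groups differ only in time: days 2, 6, 9, 12 and 15 of culture, with 1 array each. The labels do not say how many embryos were pooled or whether the 5 arrays came from 1 isolate.

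With 1 array per day there is no replicate error, and no difference between 2 days was tested. Probe sets of 1 gene can disagree. Over 3013 genes with 2 of them above the limit, the within-gene SD of 1 probe set's log2 difference (day 15 minus day 2) was 0.60. The gap between 2 probe sets of a gene spreads wider than that. This SD does not include variation between dishes or arrays. For Actb, the control signal near the 3' end over that near the 5' end, which rises as RNA degrades, was 1.17 on day 2 and between 1.23 and 1.27 on later days. For Gapdh it was 0.779 on day 2, between 0.616 and 0.707 on days 6 to 12, and 0.798 on day 15. All 10 chondrocyte markers looked for, Col2a1, Acan and Sox9 among them, were above the limit, but their summed intensity was 50545 on day 15 and 148681 on day 2. The 9 osteoblast and fibroblast markers summed to 190689 on day 15 and 3529 on day 2. The smooth muscle and pericyte markers summed to 40837 and 10370 on those days, and the 7 epithelial markers to 827 and 2937. Adipocyte markers summed to 52727 on day 15, 96935 on day 12 and 3411 on day 2. Glial markers summed to 1672 on day 15 and 3441 on day 2, and the macrophage and skeletal muscle lists each summed to between 991 and 1701 on all days. Within them Acp5 was at least 4.15-fold higher and Mrc1 2.64-fold lower on day 15 than on day 2, and Actc1 had 384 on day 12 and 96.1 on day 2. None of the 6 endothelial markers reached the limit, and Pecam1, Tek and Vwf were under the floor on all days. These marker levels moved with day, and their part in the differences below was not tested. In such mixed RNA, fewer cells of a type and less transcript per cell cannot be told apart.

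HSF1 binds heat shock elements, runs of the unit GAA and its complement TTC in alternation, 2 bases apart. The 250 bases before each RefSeq start site (GRCm38.p6) were searched for 2 units, GAANNTTC or TTCNNGAA, and for 3 units, GAANNTTCNNGAA or TTCNNGAANNTTC, each pair covering both strands. A 3-unit match always contains 2-unit matches. Windows were found for 8 members, and Hspa8 and Hsp90aa1 had none in the table. A 3-unit match was found before Hspd1 and Hspe1, against 0.514% of all 27025 genes with a window. A 2-unit match was found in 6 of the 8 members, against 14.5% of genes with a window.

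Hspd1 and Hspe1 lie head to head on chromosome 1 and share the stretch that matched, a run of 4 alternating units holding 2 overlapping 3-unit matches. Between them, 215 bases separate the Hspe1 start from the Hspd1 start that lies before it, so these are not separate observations. Another Hspd1 start in the table lies beyond the Hspe1 start, and its window held no match. The stretch is printed because both chaperonin genes border it. It is the 100 bases before the Hspe1 start (chr1:55088048-55088147, + strand), with the alternating units in capitals.
Hspd1 and Hspe1 shared stretch: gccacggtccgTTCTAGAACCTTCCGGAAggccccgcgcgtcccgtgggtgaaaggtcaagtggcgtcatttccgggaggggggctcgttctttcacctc
The 2-unit matches of the other members are shown for comparison in 30 bases each, with the match in capitals: Hsph1 (chr5:149636351-149636380, - strand), Hspa1b (chr17:34959324-34959353, - strand), Dnaja1 (chr4:40722333-40722362, + strand) and Hspb1 (chr5:135887801-135887830, + strand).
Hsph1: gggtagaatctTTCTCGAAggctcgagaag
Hspa1b: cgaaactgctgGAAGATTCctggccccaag
Dnaja1: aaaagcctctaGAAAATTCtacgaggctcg
Hspb1: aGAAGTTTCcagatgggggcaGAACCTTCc
Hspb1 held 2 such matches and the other 3 genes 1 each. No match was found in the windows of Dnajb1 and Hspa4l.

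At day 15 most of the chaperones were lower than at day 2, and the small heat shock protein gene Hspb1 went the other way. Hsph1 was 4.49-fold lower and Hspd1 3.25-fold lower, while Hspb1 was 2.93-fold higher. The other 7 genes lay within 2-fold. Among all 11075 genes kept, 11.6% were lower and 16.2% higher by 2-fold or more, so counts of 2 and 1 of 10 are near those shares. In direction, 8 of 10 members were below their day 2 level, against 49.7% of all genes. Those other than Hsph1 and Hspd1 had log2 differences between -0.79 and -0.62, little past the probe-set SD of 0.60. The median log2 difference of the members was -0.70, against 0.00 for all genes. Because the members were chosen with earlier results of these data known, these values describe the set and are not a test of it.

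**Figure D1:**
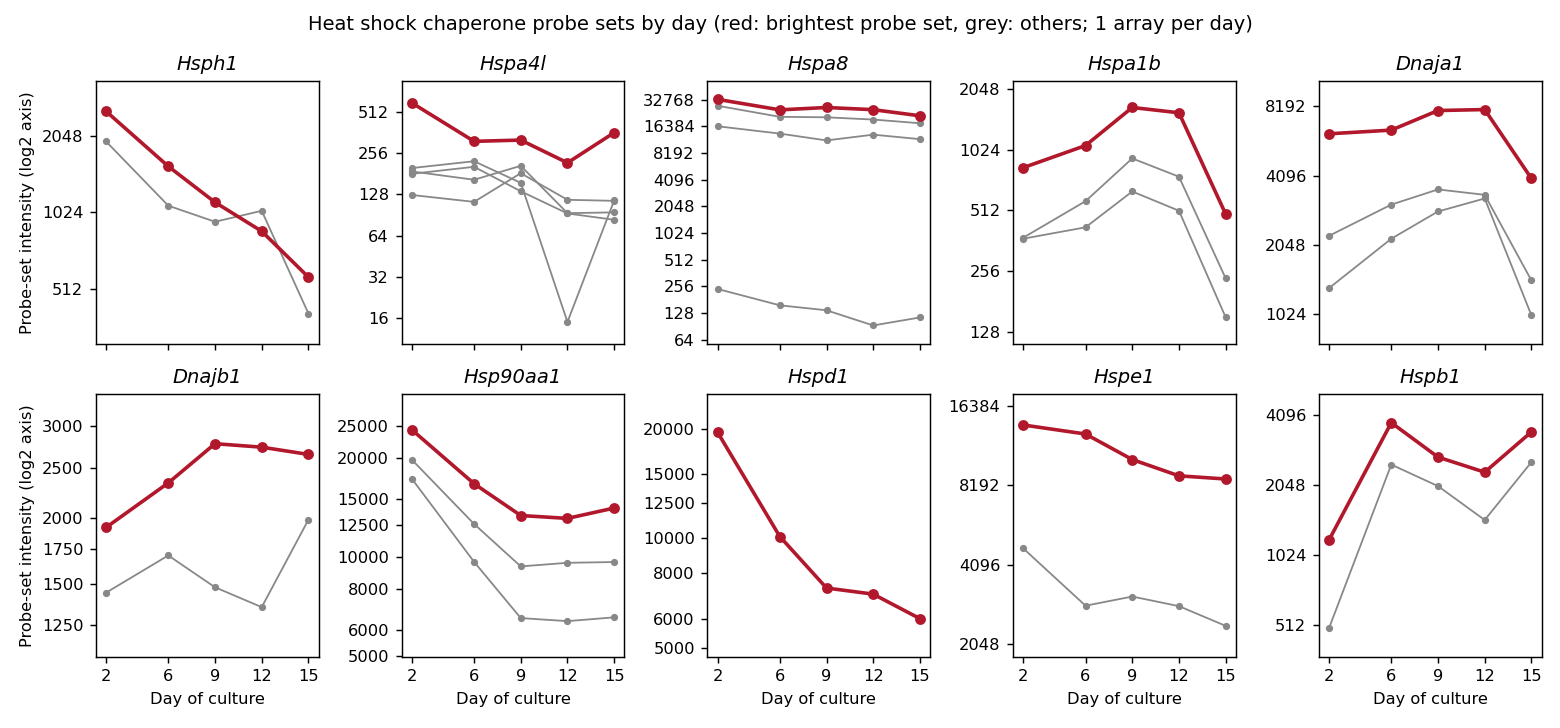
Intensity of every probe set above the limit for the 10 chaperone genes, on a log2 axis with its own range in each panel, against day of culture; the red line is the brightest probe set, grey lines are the others, and each point is 1 array. Hsph1, Hspd1 and Hsp90aa1 are highest on day 2, Hspa1b and Dnaja1 drop between day 12 and day 15, and Hspb1 is lowest on day 2.

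Hsph1 encodes HSP105, an HSP110 protein that acts as a nucleotide exchange factor for HSP70. Its intensity was 2560.1, 1554, 1123, 863.5 and 569.8 on days 2, 6, 9, 12 and 15. Each array was lower than the one before, which was true of the second probe set except at day 12, with 1948, 1089, 941, 1039 and 410 on the same days. The second probe set gave a 4.75-fold lower value at day 15 than at day 2. Only 1.23% of genes kept had a lower difference between those days. By a linear fit of log2 intensity on day (limma), the slope was -0.16 ± 0.020 per day (SE), with an adjusted p of 0.0651, above the threshold of 0.05.

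Hspa4l encodes another HSP110 protein, APG-1, known from mouse for its part in sperm formation. It was dim, with intensities of 595, 312, 318, 217 and 361 on days 2, 6, 9, 12 and 15. It was highest on day 2 and lowest on day 12, 2.74-fold lower than on day 2, and on day 15 it was 1.65-fold lower. Its 4 other probe sets, with mean intensities between 131 and 149, were all lower on day 15 than on day 2, by 1.10-fold to 2.16-fold. They did not share the step from day 2 to day 6, where 2 were higher and 2 lower, so the early part of this course rests on 1 probe set.

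Hspa8 and Hspa1b are both HSP70 genes, Hspa8 encoding the constitutive form HSC70 and Hspa1b one of a pair of stress-inducible copies. Hspa8 had 32965, 25086, 26671, 25208 and 21500 on days 2, 6, 9, 12 and 15. It kept within 1.53-fold over the course, and its lowest value was on day 15. The other 2 bright probe sets were 1.58-fold and 1.40-fold lower on day 15 than on day 2, and a dim one was 2.10-fold lower. The bright one at 1.40-fold was lowest on day 9 (11328, against 11717 on day 15). The dim one was lowest on day 12 (92.3, against 114 on day 15). The 2 brightest probe sets carry the array maker's mark for probes that may also bind other sequences. The second probe sets of Hspa1b and Hspb1 carry this mark too.

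Hspa1b had 834, 1074, 1659, 1562 and 490 on days 2, 6, 9, 12 and 15. It was highest on day 9, 1.99-fold above day 2, and lowest on day 15, 3.18-fold below day 12. All 3 probe sets had this shape. The 2 others were 1.72-fold and 2.48-fold higher on day 9 than on day 2, and 3.38-fold and 3.20-fold lower on day 15 than on day 12. By brightest probe sets, Hspa1b was the one member at least 2-fold lower on day 15 than on day 12, against 3.92% of genes kept. On that reading 0 members were higher by that much (4.23%). Of all genes, 0.623% had a lower difference than Hspa1b. Other probe sets of 2 more members were also lower by 2-fold or more, the second of Hsph1 (2.53-fold) and the 2 dimmer ones of Dnaja1 (2.35-fold and 3.21-fold). The near-identical copy Hspa1a, read by 1 dim probe set, had 103, 141, 95.7, 200 and 69.0 on days 2, 6, 9, 12 and 15. Probes for the 2 copies may bind both transcripts, so their levels cannot be told apart with certainty.

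Dnaja1 and Dnajb1 encode J-domain proteins, the partners that load unfolded chains onto HSP70. Dnaja1 had 6216, 6449, 7844, 7922 and 3977 on days 2, 6, 9, 12 and 15. It was 1.99-fold lower on day 15 than on day 12, just under the 2-fold threshold. Its 2 other probe sets were 2.35-fold and 3.21-fold lower. Like Hspa1b it was higher on days 9 and 12 than on day 2 and lower on day 15 than on any other day, in all 3 probe sets. The root mean square difference between the centred courses of Dnaja1 and Hspa1b was 0.30 on the log2 scale, against a median of 0.56 over the 45 pairs of members.

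Dnajb1, which encodes HSP40, had 1921, 2337, 2777, 2735 and 2649 on days 2, 6, 9, 12 and 15. It was lowest on day 2 and 1.38-fold higher on day 15. The second probe set was also 1.38-fold higher on day 15, but it was 1.02-fold higher on day 9 and lower on day 12 than on day 2. With Hspb1 it was one of the 2 members above their day 2 level on day 15, by less than the probe-set SD.

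**Figure D2:**
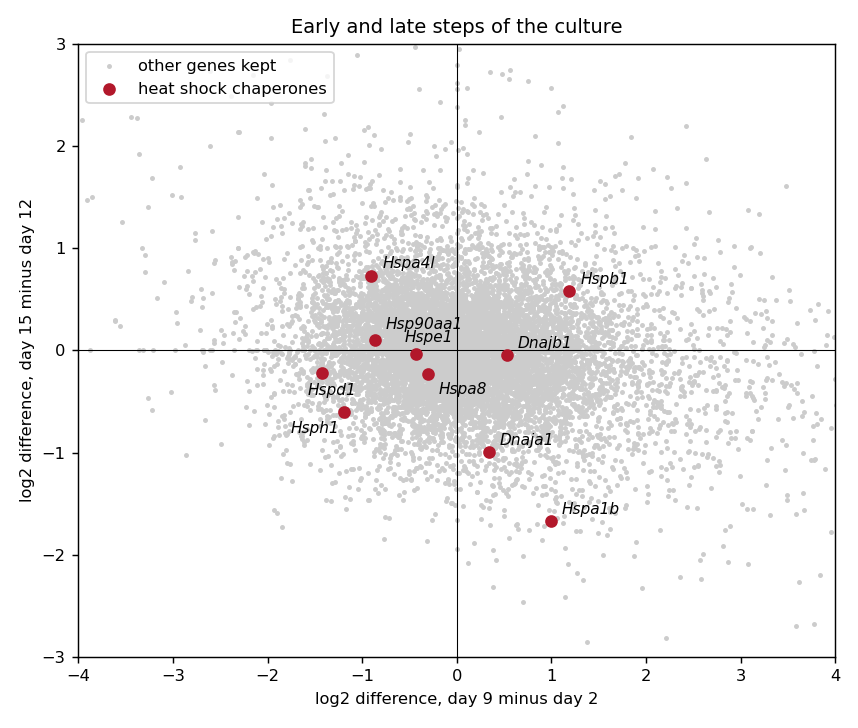
Log2 difference of day 9 minus day 2 (horizontal) against day 15 minus day 12 (vertical) for 10977 of the 11075 genes kept; 98 genes lie outside the axes, red points are the 10 chaperones and grey points the other genes. Hspa1b and Dnaja1 lie low on the vertical axis, Hsph1 and Hspd1 far to the left, and Hspb1 to the right.

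Hsp90aa1 encodes the inducible HSP90-alpha, which completes the folding of kinases and steroid receptors. It had 24323, 16677, 13350, 13083 and 14066 on days 2, 6, 9, 12 and 15. It was highest on day 2, 1.82-fold lower on day 9 and 1.73-fold lower on day 15, so the difference lay between days 2 and 9. The 2 other probe sets above the limit were 2.05-fold and 2.64-fold lower on day 15 than on day 2, past the threshold that the brightest did not reach. The 2 probe sets below the limit were under the floor on 3 of the 5 days each. By limma the slope was -0.062 ± 0.025 per day (SE), with an adjusted p of 0.183.

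Hspd1 and Hspe1 encode HSP60 and HSP10, the barrel and lid of the mitochondrial chaperonin. Hspd1, read by 1 probe set, had 19544, 10104, 7295, 7018 and 6010.0 on days 2, 6, 9, 12 and 15. Most of the difference came early, with day 6 already 1.93-fold below day 2. Hspe1 had 13855, 12803, 10246, 8887 and 8645 on those days, 1.60-fold lower on day 15 than on day 2. The second probe set of Hspe1 had 4716, 2859, 3098, 2848 and 2398, 1.97-fold lower on day 15 and, like Hspd1, mostly by day 6. Both genes were highest on day 2 and lowest on day 15, but the difference of Hspe1 was under 2-fold by both probe sets. By limma the slope was -0.13 ± 0.027 per day for Hspd1 and -0.059 ± 0.020 for Hspe1 (SE), with adjusted p of 0.0791 and 0.144. The root mean square difference between their courses was 0.38.

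Hspb1 encodes HSP25, a small heat shock protein that also binds actin filaments. It had 1187, 3811, 2707, 2330 and 3477 on days 2, 6, 9, 12 and 15. It was lowest on day 2 and highest on day 6, 3.21-fold higher. The second probe set had 494, 2512, 2029, 1449 and 2574, which is 5.08-fold higher on day 6 and 5.21-fold higher on day 15 than on day 2. Both probe sets dipped on day 12 and neither returned to its day 2 level. Beside it, the summed smooth muscle and pericyte markers were 10370 on day 2, 25672 on day 6, 42650 on day 12 and 40837 on day 15. The osteoblast and fibroblast markers summed to 3529, 32406, 149704 and 190689 on those days. The part of those cells in the Hspb1 signal was not tested.

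**Figure D3:**
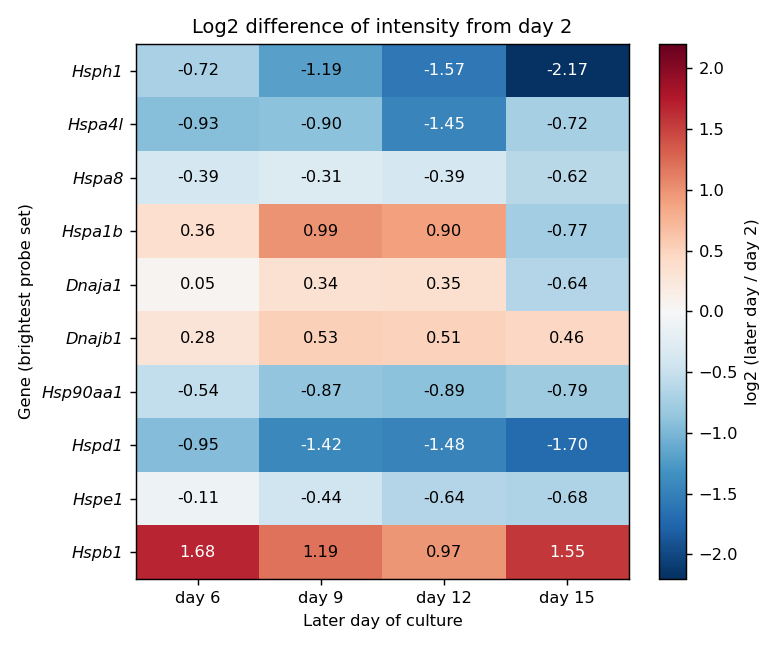
Log2 difference of intensity of each later day from day 2 for the brightest probe set of each chaperone gene, with blue for lower and red for higher than day 2 and the value printed in each cell. Hsph1 reaches -2.17 on day 15 and Hspd1 -1.70, Hspb1 is at 0.97 or more on every later day, and Hspa1b and Dnaja1 turn from red to blue between day 12 and day 15.

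Over the course, 6 of the 10 members were highest on day 2, against 32.2% of all genes, and 6 were lowest on day 15, against 23.3%. The choice of members with earlier results known bears on these counts, which describe the set and are not a test. Of the 6 highest on day 2, Hspa8, Hsph1, Hspd1 and Hspe1 were also lowest on day 15, though not by every Hspa8 probe set. Hspa4l was highest on day 2 by its brightest probe set alone, and its dimmer ones were highest on day 6 or day 9. Hsp90aa1 and Hspa4l were the 2 members lowest on day 12 (16.4% of genes), Dnajb1 and Hspb1 the 2 lowest on day 2 (34.4%), and 0 were lowest on day 6 (12.7%) or day 9 (13.2%). Hspb1 was the 1 member highest on day 6 (16% of genes), Dnajb1 and Hspa1b the 2 highest on day 9 (14%) and Dnaja1 the 1 highest on day 12 (15.5%). For Dnaja1 that was 7922 against 7844 on day 9, and its second probe set was highest on day 9. No member was highest on day 15, against 22.4% of genes, but the second probe sets of Hspb1 and Dnajb1 were highest on that day. The range from lowest to highest day reached 2-fold in 5 members, against 46.6% of genes. The median range was 2.34-fold in the members and 1.93-fold over all genes.

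The earlier days are given in the same way. On day 6 against day 2, 1 member was higher by 2-fold or more (10.2% of all genes) and 0 lower (5.7%), with a median of -0.25. On day 9 against day 2, 2 were lower (10.3%) and 1 was higher (15.1%), and the median was -0.37. On day 12 against day 2, 3 were lower (11.4%) and 0 higher (16.1%), and the median was -0.51. These comparisons share the day 2 array, so an error on that array would enter all of them. Between later days, 0 of 10 reached 2-fold by brightest probe sets on day 9 against day 6 or on day 12 against day 9. On those steps 5.87% and 1.72% of genes were higher and 4.06% and 1.51% lower. Dim probe sets of Hspa4l were 2.22-fold and 2.12-fold lower on day 12 than on day 9. On day 15 against day 9, Hspa1b alone was at least 2-fold lower by brightest probe sets (4.05% of genes) and 0 were higher (5%). Other probe sets of Hsph1 (2.30-fold) and Dnaja1 (2.48-fold and 2.82-fold) and a dim one of Hspa4l (2.19-fold) were also lower by that much. No test applies to these steps.

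The linear trend on day was the only test run, and no curved course was fitted. No member had a trend at an adjusted p under 0.05 by limma in either direction, among 11075 genes of which 0.0542% rose and 0% fell at that threshold. At an unadjusted p under 0.05 by limma, 4 members had falling slopes (Hsph1, Hspd1, Hspe1 and Hsp90aa1), against 12.7% of genes. Rising slopes at that level were found in 0 members, against 14.4%. As the members were chosen with earlier results known, these counts are not a test of the set. A straight line does not follow the courses of Hspa1b, Dnaja1 and Hspb1, which turned, and their adjusted p were 0.815, 0.647 and 0.323.

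The closest pair of courses was Hsp90aa1 and Hspe1, with a root mean square difference of 0.17 on the log2 scale over 5 arrays, followed by Hspa8 and Hspe1 at 0.18. The farthest pair was Hsph1 and Hspb1 at 1.21. Hsph1 and Hspd1 differed by 0.26.

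Other genes of the chaperone network were read from lists. The heat shock factor list had 2 of 7 genes above the limit, and Hsf1 itself had no probe set of its own in the annotation used here. Hsf2, a second heat shock factor, was dim, with 137, 131, 103, 103 and 59.2 on days 2, 6, 9, 12 and 15. Hsbp1, a small protein that binds heat shock factors, had 5284, 6891, 7647, 8705 and 8952, 1.69-fold higher on day 15 than on day 2, and its second probe set gave a log2 difference of 0.81. Hsf4, Hsf5, Hsf2bp and Hsbp1l1 lay below the limit, and Hsf4 had 188 on day 2, 17.6 on day 9 and 142 on day 15.

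Of 11 other HSP70, HSP110 and HSP90 genes above the limit, 1 was higher and 1 lower by 2-fold or more on day 15 than on day 2, with a median log2 difference of -0.28. The lower one was Hspa9, the HSP70 of mitochondria, with 13701, 8424, 4942, 5127 and 6377 on days 2, 6, 9, 12 and 15. Like Hspd1, it was highest on day 2 with a large early step. Its 3 other probe sets above the limit gave log2 differences of -0.91, -1.48 and -0.33. The higher one was Hspa2, an HSP70 best known from male germ cells, with 382 on day 15 and 176 on day 2.

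Among 21 other J-domain genes, 2 were lower by 2-fold or more and 0 higher, with a median of -0.26. Dnajc2, which acts with HSP70 at the ribosome, was 2.85-fold lower on day 15 than on day 2, and its 2 other probe sets gave -1.12 and -1.33 on the log2 scale. The second was Dnajb12, an endoplasmic reticulum protein, at 2.01-fold lower, named here after its values were seen. Dnaja3, a mitochondrial partner of HSP70, was 1.69-fold lower, and Dnajb5 was 1.47-fold higher. Their other probe sets above the limit were 1.18-fold lower for Dnaja3 and 1.33-fold higher for Dnajb5.

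The HSP70 and HSP90 cochaperone list had 22 genes above the limit, of which 2 were lower by 2-fold or more and 0 higher, with a median of -0.14. Chordc1, an HSP90 cochaperone, had 1316 on day 15 and 3944 on day 2, a log2 difference of -1.58. Stip1, which joins HSP70 to HSP90, had 1302 on day 15 and 2628 on day 2, 2.02-fold lower. Fkbp5, a steroid receptor cochaperone, had 697 on day 15 and 748 on day 2, but 370 on day 12. Its other probe set above the limit had 213 on day 15 and 381 on day 2, 1.79-fold lower.

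Cytosolic chaperonin (TRiC) and prefoldin genes were mostly below their day 2 level by less than 2-fold. Of 14 genes 0 were lower and 1 was higher by 2-fold or more, with a median of -0.61. Cct7, a TRiC subunit, had 5258 on day 15 and 9929 on day 2, a log2 difference of -0.92, and its second probe set gave -1.48. Pfdn4 gave -0.87, and Pfdn5 was the higher one at 2.21-fold, with 14695 on day 15 and 6657 on day 2. In the mitochondrial chaperone and protease list 1 of 11 was lower by 2-fold or more and 0 higher, with a median of -0.07. That gene was Grpel1, the exchange factor of mitochondrial HSP70, at 2.52-fold lower. Lonp1, a protease of the mitochondrial matrix, was 1.78-fold lower and Yme1l1, an inner membrane protease, 1.46-fold higher.

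Of 6 other small heat shock protein genes above the limit 3 were higher by 2-fold or more on day 15 than on day 2 and 0 lower. The median of 1.97 falls in the gap between those 3 and Cryab, Hspb6 and Hspb11, named here after their values were seen, whose log2 differences were 0.58, 0.72 and 0.68. Hspb11 was counted by its symbol, and whether it encodes a small heat shock protein was not checked. Hspb2 had 70.4, 69.0, 275, 310 and 1002 on days 2, 6, 9, 12 and 15, at least 13.7-fold higher on day 15 since day 2 lay under the floor. Hspb7, a muscle-enriched member, had 22.2, 91.8, 73.8, 230.4 and 897, at least 12.3-fold higher. Hspb8 had 139, 335, 647, 400 and 1296, 9.35-fold higher, with its other probe sets at 2.68 and 3.12 on the log2 scale. These 3 had their highest value on day 15. The brightest probe set of Hspb1 was highest on day 6, but its second was highest on day 15 (2574, against 2512 on day 6). Smooth muscle and pericyte markers were at least 2-fold higher on day 15 in 5 of 5 measured genes, while Myh11 was under the floor on all days, and their part in these values was not tested. Over all 7 lists, 0 genes had a trend at an adjusted p under 0.05 by limma. At an unadjusted p under 0.05 by limma, 14.4% of all genes rose and 12.7% fell. Counts in either direction were 2 of 2 heat shock factor genes, 3 of 11 HSP70, HSP110 and HSP90 genes and 5 of 21 J-domain genes. They were 3 of 6 small heat shock protein, 4 of 22 cochaperone, 5 of 14 TRiC and prefoldin, and 2 of 11 mitochondrial genes.

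**Figure D4:**
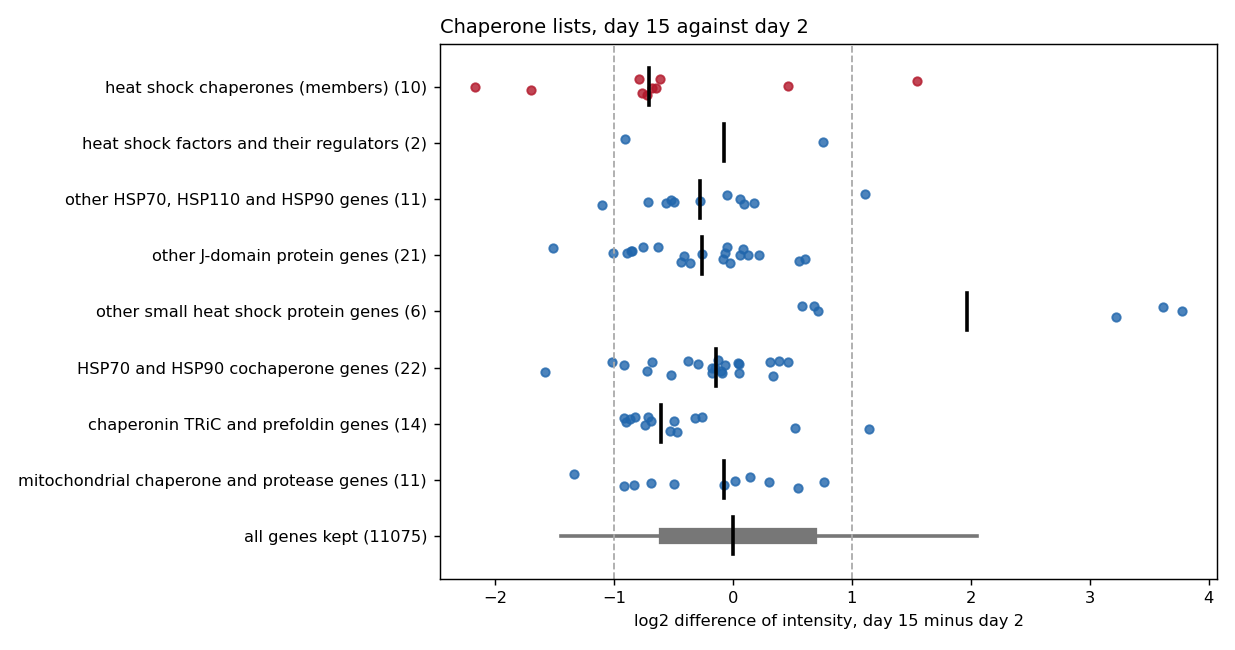
Log2 difference of day 15 minus day 2 for each gene above the limit in the chaperone set (red) and the 7 other lists (blue), with the number of genes in brackets; black bars are medians, dashed lines mark 2-fold, and for all genes kept the grey box spans the 25th to 75th and the line the 5th to 95th percentile. The members' median lies at -0.70, that of the TRiC and prefoldin genes at -0.61 and that of the other small heat shock protein genes at 1.97.

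Genes outside the lists with courses most like the members were found by the smallest root mean square difference between centred log2 courses over the 5 arrays, among 3962 genes that ranged at least 2-fold and were above the floor on all 5 days. Closest to the mean of the 10 members were Pbdc1, Taf2, Fgd3, Asf1a and Rfwd3, with differences of 0.14 to 0.15. Fgd3 was dim, and its other probe set, close to the first in mean intensity, gave a log2 difference of 0.07 on day 15 against day 2. With arrays centred on their median, where the brightest probe set can change, the gene gave 0.21, the opposite direction. Each ranged more than that mean, whose range was 0.61, because a gene had to range at least 1. Closest to Hsph1 were Ctnnal1, Xpo5, Ezr, Snhg4 and Srgap1, with differences of 0.11 to 0.14. Ctnnal1, a catenin-like protein gene, had 1287, 813, 552, 406 and 333 on days 2, 6, 9, 12 and 15. Xpo5, the exporter of microRNA precursors, had 255 on day 15 and 1183 on day 2, but its other probe set gave a log2 difference of -0.13. Ezr, the actin linker ezrin, had 594 on day 15 and 2607 on day 2, and its second, dim probe set went the other way, with 206 on day 15 and 68.9 on day 2.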

How the data were processed

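Labelled RNA of 5 cultures, 1 for each day, was read on 1-colour oligonucleotide arrays. The deposited values were linear probe-set intensity. The submitters' processing notes name MAS5, with no version, and each array had a mean of 500 after trimming 2% at both ends. A shift common to most transcripts is therefore removed. Of 45101 probe sets, 64 were controls, 34945 carried 1 gene symbol, 932 several and 9160 none. Symbols were updated through RefSeq (GRCm38.p6), which matched 34741.

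Intensities under the 40th percentile, 73.1, were set to it and log2 was taken. A gene was its brightest probe set, kept where its mean reached 105.93, the median over probe sets, which left 11075 genes. A fold is the ratio of 2 floored values, which is too small for dim genes. The trend was fitted with limma 3.58.1 in R 4.3.3 (lmFit, eBayes, two-sided, 3 residual degrees of freedom, Benjamini-Hochberg over 11075 genes) and tested on simulated data. Python 3.11.15, pandas 2.3.3 and matplotlib 3.10.9 did the rest. The number of arrays limits the precision, and p-values measure spread about a line over cultures that may share an isolate.

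The members and lists were chosen with earlier results of these data known. Genes named from the 7 other lists were the 3 with the largest range in each, and the heat shock factor list whole. Like genes were the 5 nearest to the members' mean and to Hsph1. Alternatives were quantile normalization, centring arrays on their median, floors at the 20th and 60th percentile, a pseudocount equal to the floor, the mean over probe sets, no filter, a filter at the 70th percentile and, for the trend, leaving out each array. Scanner files and detection calls were not used here.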

Additional observations from a re-analysis of the deposited data

How the results depend on the processing

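No paired analysis was possible because each day has 1 array. The median of the members kept its sign on every comparison with day 2 under all 8 alternatives. On day 15 against day 2 the counts of 1 member higher and 2 lower were the same under all 8, with the median between -0.79 and -0.56. Centring arrays on their median moved the median of all genes to 0.15, 0.11 and 0.14 on days 9, 12 and 15 against day 2. It also moved the share of higher among called genes to 69.5% on day 9 against day 2 (59.4% as reported) and to 73.3% on day 9 against day 6 (59.1% as reported). Under that centring 2 members were at least 2-fold higher on day 9 and 2 on day 12 against day 2, and 1 was highest on day 15. With the mean over probe sets the counts were 2 and 1 higher on those days, 1 highest on day 15, 2 lower on day 15 against day 12 and 3 lower on day 15 against day 9. With quantile normalization 1 member was lower on day 6 against day 2 and the median was -0.0564, and 2 members were lower on day 15 against day 12 and 2 against day 9. One member, Hsph1, passed the trend test with a pseudocount (limma adjusted p = 0.0432) and with the filter at the 70th percentile (0.0384), where 1 falling member was counted. Its adjusted p was between 0.0384 and 0.0950 over the 8 alternatives. Over all genes, 6 rising and 0 falling trends were called, against 66 and 22 with the pseudocount, 119 and 85 with the filter at the 70th percentile, 12 and 1 with arrays centred, and 0 and 0 without a filter, without any 1 array, or with the higher floor (60th percentile). Leaving out each array in turn gave 0 to 0 members with a trend in either direction, and an adjusted p for Hsph1 of 0.0722 to 0.269. Fgd3 had a log2 difference of 0.21 on day 15 against day 2 with arrays centred on their median, the opposite direction. Its 2 probe sets were close in mean intensity, so the brightest can change under centring, and the other gave 0.07 without it. The causes of the other shifts were not tested. Of the lists, Hspb2 gave 2.47 and Hspb7 2.31 with the floor at the 60th percentile, and Hspb7 5.27 with it at the 20th, since their day 2 values lie under the main floor. Signal over background limits Hspa4l, Hspa1a and Hsf2, which were within a few times the floor.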
